A study of Mus musculus with 90 samples.

Results

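The mouse genes whose name is Zfp followed only by digits encode zinc finger proteins, and 343 protein-coding gene records of the mm9 annotation (GENCODE vM1) bear such a name, out of 22380 protein-coding genes. These 343 records carry 339 different names, since 4 names have 2 records each, and every one was kept whether or not it held a peak. The genes were chosen by name alone, so no measured value entered the choice. The peak lists hold no expression values, and the cell type of the samples was therefore not checked against marker genes.

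Peaks of histone H3 lysine 9 trimethylation (H3K9me3), of the co-repressor Trim28 and of Uhrf1 were mapped in 3 lines of mouse embryonic stem cells (ESCs), with 2 replicate peak lists per line and mark. WT cells were of the V6.5 strain and carried their own DNA methyltransferases. TKOL cells were a clonal J1 line without catalytically active Dnmt3a and Dnmt3b in which a short hairpin RNA also depleted Dnmt1, and DKO0 cells were derived from them by Cre excision of the hairpin, so that Dnmt1 returned while Dnmt3a and Dnmt3b stayed inactive. WT thus differed from both other lines in strain as well as in methyltransferases, and the effects of strain and genotype cannot be told apart. For Uhrf1, the protein in each line carried a FLAG tag at its own gene and was recovered with an antibody to the tag. Nothing in the labels said that replicates came from separate cultures, so the spread between replicate lists may be technical. TKOL and DKO0 also had 1 pooled list per mark, made by the authors from the merged reads of both replicates with input; no pooled WT list was used here.

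Replicate lists held between 11440 and 63579 peaks, and pooled lists up to 104618. The number of peaks differed within lines. For H3K9me3 in DKO0 it was 63579 in replicate 1 and 37315 in replicate 2, for Trim28 in TKOL it was 31921 and 16960, and for Uhrf1 in WT it was 30134 and 49156. The names of the peaks in TKOL Trim28 replicate 1 point to a library series other than that of the other Trim28 lists. With 2 lists against 2, an exact two-sided permutation test cannot give a p below 0.333, so no p-value is printed, and differences are set beside the spread between lists.

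A C2H2 zinc finger is a short fold of the protein that holds a zinc ion and reads a few bases of DNA, and many such proteins carry an array of fingers in tandem. In many of them a KRAB box in front of the array recruits Trim28, which brings the H3K9 methyltransferase Setdb1 and HP1 proteins, and in ESCs this pathway silences endogenous retroviruses and guards imprinted methylation. Uhrf1 binds hemimethylated DNA and methylated H3K9 and brings Dnmt1 to replicated DNA. The array of fingers is usually encoded by the last exon, which places repeated coding sequence at the 3′ end of the gene.

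In these genes the last exon was long. Its median length was 2220 bp, against 955 bp in the other genes, while the median gene length was similar at 14932 and 15427 bp. At least 1 C2H2 finger was found in 321 of the 343 records, and 270 had 5 or more. The median was 10 fingers and the largest number was 33, in Zfp462, a zinc finger protein of ESCs. No finger of the searched pattern was found in 22 records. The genes were spread unevenly, with 86 on chromosome 7, 39 on chromosome 17, 33 on chromosome 13 and 27 on chromosome 8.

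The sequences below show what lay under the peaks: 2 neighbouring fingers of the last exon of 6 genes, from the mm9 genome, printed 5′ to 3′ on the coding strand. They come from genes among those with the most last-exon coverage by one of the marks in the replicate lists, and within each gene the finger pair that lay whole inside peaks of the most lists was taken. The capitals mark the 15 bases that follow the last histidine of the first finger and encode the linker between fingers. The positions are chr4:146163005-146163151 (+) in Zfp600, chr4:147049450-147049596 (−) in Zfp534, chr7:24890302-24890448 (+) in Zfp180, chr13:66771807-66771953 (−) in Zfp640, chr7:50445183-50445329 (+) in Zfp936 and chr5:130163866-130164012 (−) in Zfp11. All of them are coding sequence of the last exon.
Zfp600: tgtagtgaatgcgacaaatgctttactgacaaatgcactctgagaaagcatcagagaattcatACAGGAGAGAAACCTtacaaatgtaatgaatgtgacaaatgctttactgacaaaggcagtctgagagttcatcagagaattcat
Zfp534: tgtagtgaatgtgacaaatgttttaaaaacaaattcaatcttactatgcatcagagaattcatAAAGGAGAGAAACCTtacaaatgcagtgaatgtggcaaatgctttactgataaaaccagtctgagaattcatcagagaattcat
Zfp180: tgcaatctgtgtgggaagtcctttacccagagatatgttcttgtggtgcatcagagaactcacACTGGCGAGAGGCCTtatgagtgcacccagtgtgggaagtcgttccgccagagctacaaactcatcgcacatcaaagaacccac
Zfp640: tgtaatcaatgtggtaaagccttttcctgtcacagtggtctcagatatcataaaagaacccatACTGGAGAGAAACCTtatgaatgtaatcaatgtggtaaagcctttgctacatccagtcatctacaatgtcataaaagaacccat
Zfp936: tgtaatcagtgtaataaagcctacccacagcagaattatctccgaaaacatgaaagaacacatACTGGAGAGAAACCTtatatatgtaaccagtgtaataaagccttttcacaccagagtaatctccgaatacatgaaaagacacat
Zfp11: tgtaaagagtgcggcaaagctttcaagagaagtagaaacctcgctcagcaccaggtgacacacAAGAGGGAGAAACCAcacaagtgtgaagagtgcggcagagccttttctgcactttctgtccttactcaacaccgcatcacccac

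Over the 147 bases, the 15 pairs of these sequences were identical at 46.9% to 87.1% of positions, with a median of 57.1%. The closest pair was Zfp600 and Zfp534, which lie on chromosome 4. The Zfp600 stretch lay whole inside H3K9me3 peaks of 5 of 6 replicate lists, and the Zfp936 and Zfp11 stretches inside Uhrf1 peaks of both WT lists. The Zfp534 stretch lay whole inside H3K9me3 peaks of 2 lists, the Zfp180 stretch inside those of 1 list, DKO0 replicate 1, and the Zfp640 stretch inside a Trim28 peak of 1 list, TKOL replicate 1. They held few CpGs, with 0 in Zfp534 and Zfp640, 1 in Zfp600, 2 in Zfp936 and 4 in each of Zfp180 and Zfp11. The letters ACNGGNGANAANCC, the usual linker written back into bases with N where its codons differ, were searched on both strands. This motif was present in the last exon of 221 of the 343 Zfp genes (64.4%) and of 221 of the 22037 other genes (1.00%). Counted in windows of 147 bp, it was present in 17.3% of windows of Zfp last exons and in 0.398% of those of other genes.

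H3K9me3 lay over the last exon of Zfp genes more often than over that of other genes. In the pooled lists, 44 of 343 Zfp genes (12.8%) had an H3K9me3 peak over the last exon in TKOL and 47 (13.7%) in DKO0, where 2.62% and 2.85% of all protein-coding genes did. Other genes of like length, meaning other protein-coding genes weighted to the gene lengths of the Zfp genes, came to 2.42% and 2.67%. Weighted instead to their longer last exons, other genes came to 3.16% and 3.23%.

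In the replicate lists the share stood above other genes of like length in 6 of 6 and above all other genes in 5 of 6, at smaller and variable size. A last-exon peak was found in 6 and 2 Zfp genes in the WT lists (1.75% and 0.583%), in 14 and 6 in the TKOL lists (4.08% and 1.75%) and in 27 and 2 in the DKO0 lists (7.87% and 0.583%). The share stood above genes of like length by 0.716 ± 0.698 percentage points in WT, 2.23 ± 1.27 in TKOL and 3.15 ± 4.37 in DKO0 (mean ± SD, n = 2 lists each). The list below all genes was DKO0 replicate 2, with 0.583% against 0.617%. DKO0 replicate 1 alone set most of the DKO0 value, and against genes of like last exon length 5 of the 6 lists stood above, DKO0 replicate 2 being below. The shares themselves differed by 1.31 points between DKO0 and TKOL, with a pooled SD of 3.83, and did not stand apart between lines. Replicates shared few genes: both lists held a peak in 2 Zfp genes in WT (0.259% of all genes), 3 in TKOL (0.237%) and 1 in DKO0 (0.357%). Counting only peaks of −log10 q of at least 5, the excess in TKOL was 0.0652 points.

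**Figure D1:**
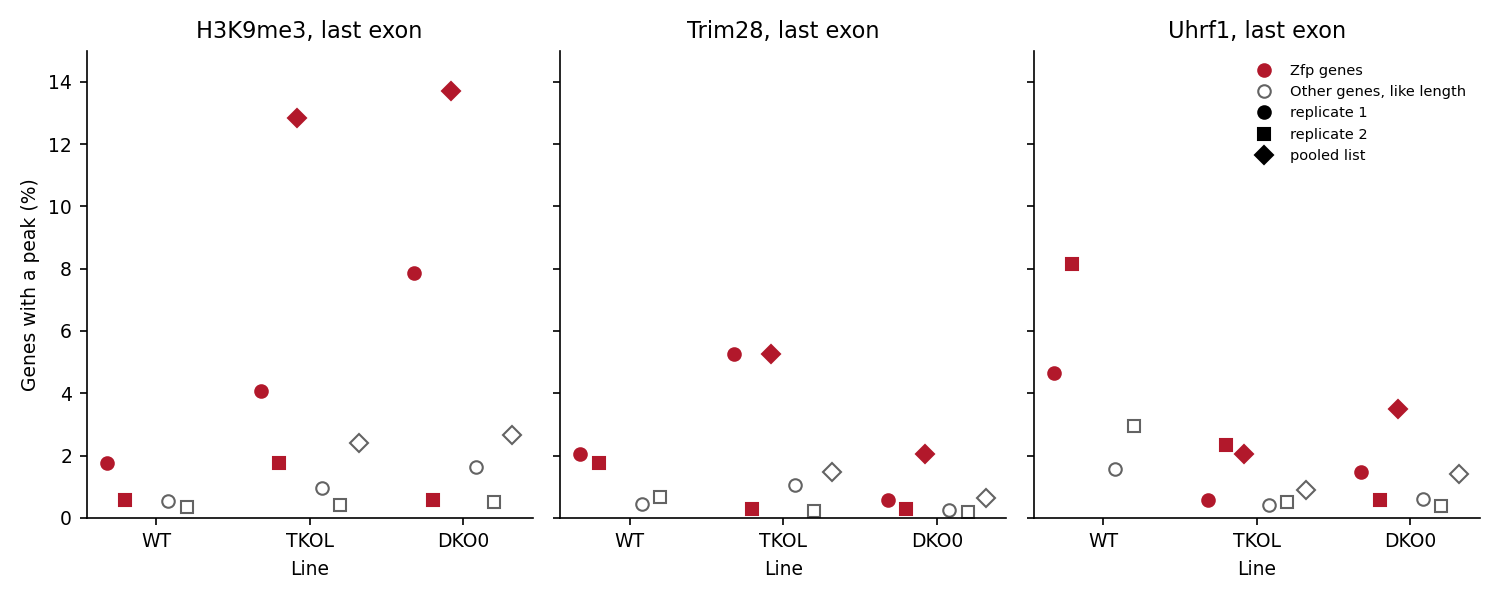
Share of genes with a peak over the last exon (%), by mark, line and peak list, for the 343 Zfp genes and for other genes of like length. In the pooled H3K9me3 lists the Zfp genes stand at 12.8% in TKOL and 13.7% in DKO0, and other genes of like length at 2.42% and 2.67%.

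The pooled peaks covered much of the last exons they touched. In DKO0 the median covered part of the last exon was 74.8% among the 47 genes with a peak, and 30 of the 47 were covered over at least 50% of their length (63.8%, against 43.1% of the other genes with a peak). In TKOL the median was 38.1%, against 34.4% in the other genes with a peak. There 18 of 44 reached a coverage of 50% (40.9%, against 37.9% of the other genes with a peak), so the 2 sets were close. The fold enrichment of the peaks, a ratio to the background estimated in peak calling, had a median of 3.13 in DKO0 and 3.02 in TKOL, against 2.71 and 2.91 at the last exons of other genes. At least 90% of the last exon lay inside peaks in both lines for 4 genes, Zfp640, Zfp575, Zfp936 and Zfp553. Zfp553 was named after its values were seen.

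The 2 lines shared most of these genes. A pooled last-exon peak was present in both lines for 36 Zfp genes, only in TKOL for 8 and only in DKO0 for 11, so that 81.8% of the TKOL genes were also marked in DKO0 and 76.6% of the DKO0 genes in TKOL. Among all genes these shares were 71.4% and 65.8%. Of the 36 genes, 15 had no last-exon peak in any replicate list of any line, so their mark was seen only when the reads of both replicates were merged.

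The mark was low at the start of the genes and higher at their 3′ end. Around the annotated gene end, the pooled DKO0 peaks covered 8.85% of bases in the bin centred 250 bp before the end and 8.91% in that 250 bp after it, against 1.39% and 1.46% in other genes. In TKOL the same bins had 6.30% and 7.12%, against 1.12% in other genes on either side. Around the start, coverage was lower, with 2.50% and 2.28% in DKO0 and 2.55% and 1.63% in TKOL, against 0.905% and 0.892% of other genes in DKO0. The flank in front of the genes was also covered, with 7.46% in DKO0 and 6.39% in TKOL a little under 5 kb before the start, against 2.55% and 2.11% in other genes. Farther out, in the bin centred 7250 bp before the start, it was 9.34% in DKO0 and 7.27% in TKOL, against 3.37% and 2.82% in other genes. The gene end of Zfp genes thus did not stand above the flank in front of them. Both sets of genes dipped at the start, Zfp genes at a higher level, and a rise from the gene body to the end was seen in Zfp genes.

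**Figure D2:**
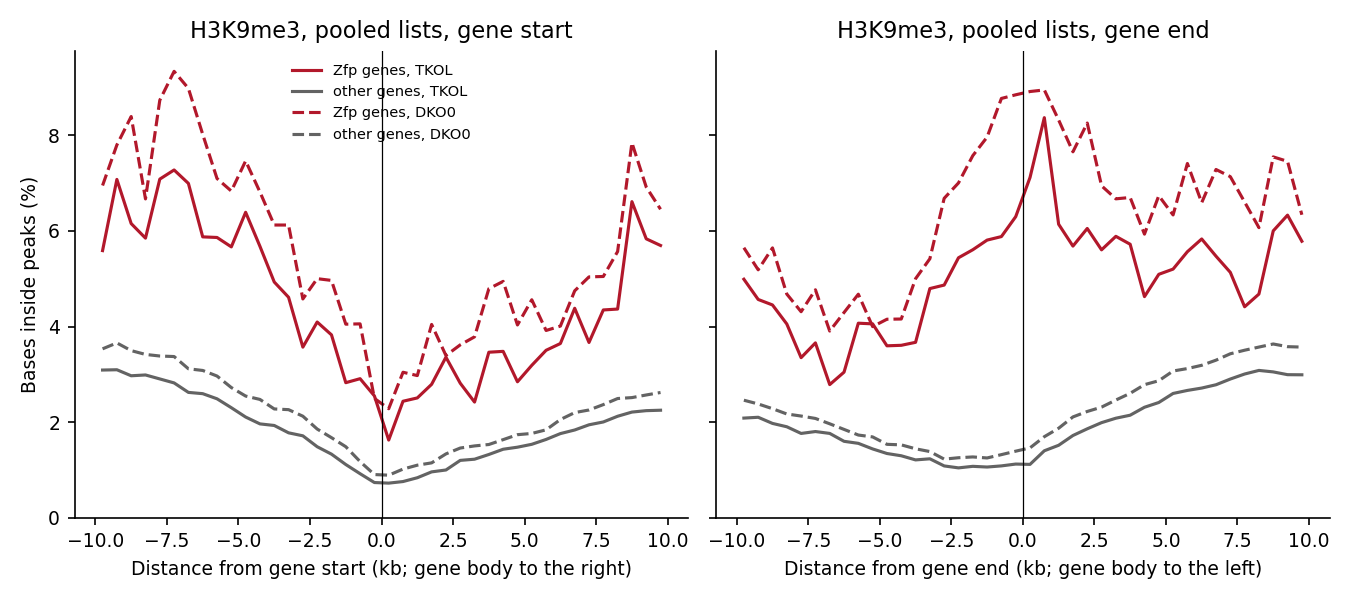
Percent of bases inside pooled H3K9me3 peaks against the distance (kb) from the gene start (left) and gene end (right), for Zfp genes and other genes in TKOL and DKO0. In DKO0 the Zfp genes stand at 8.91% just after the gene end, at 2.28% just after the start and at 9.34% in the bin centred 7250 bp before the start.

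Within the genes that encode fingers in the last exon, the finger-coding bases were the most covered part in the pooled H3K9me3 lists. Over 276 such genes, pooled DKO0 H3K9me3 peaks covered 11.0% of the finger-coding bases, 8.32% of the other coding bases of the last exon, 6.54% of the last exon after the stop codon, 4.24% of earlier exons and 5.71% of introns. The 5 kb behind the gene end had 8.56%. In TKOL the order was the same, from 7.28% in the fingers and 6.84% behind the gene to 4.66% in introns and 3.13% in earlier exons. The coverage therefore reached beyond the fingers to the introns and the flank, and the difference between fingers and introns was 5.32 percentage points in DKO0 and 2.63 in TKOL. In the replicate lists it was 0.129 ± 0.202 points in WT, 0.0689 ± 0.0313 in TKOL and 0.505 ± 0.870 in DKO0 (n = 2 lists each), so it exceeded the spread of the lists in TKOL alone. Among replicate lists the fingers were the most covered part only in WT replicate 1 and DKO0 replicate 1. In the others the 5 kb behind the gene end was covered more than the fingers. It had 0.870% against 0.668% in TKOL replicate 1 and 0.219% against 0.0923% in DKO0 replicate 2.

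**Figure D3:**
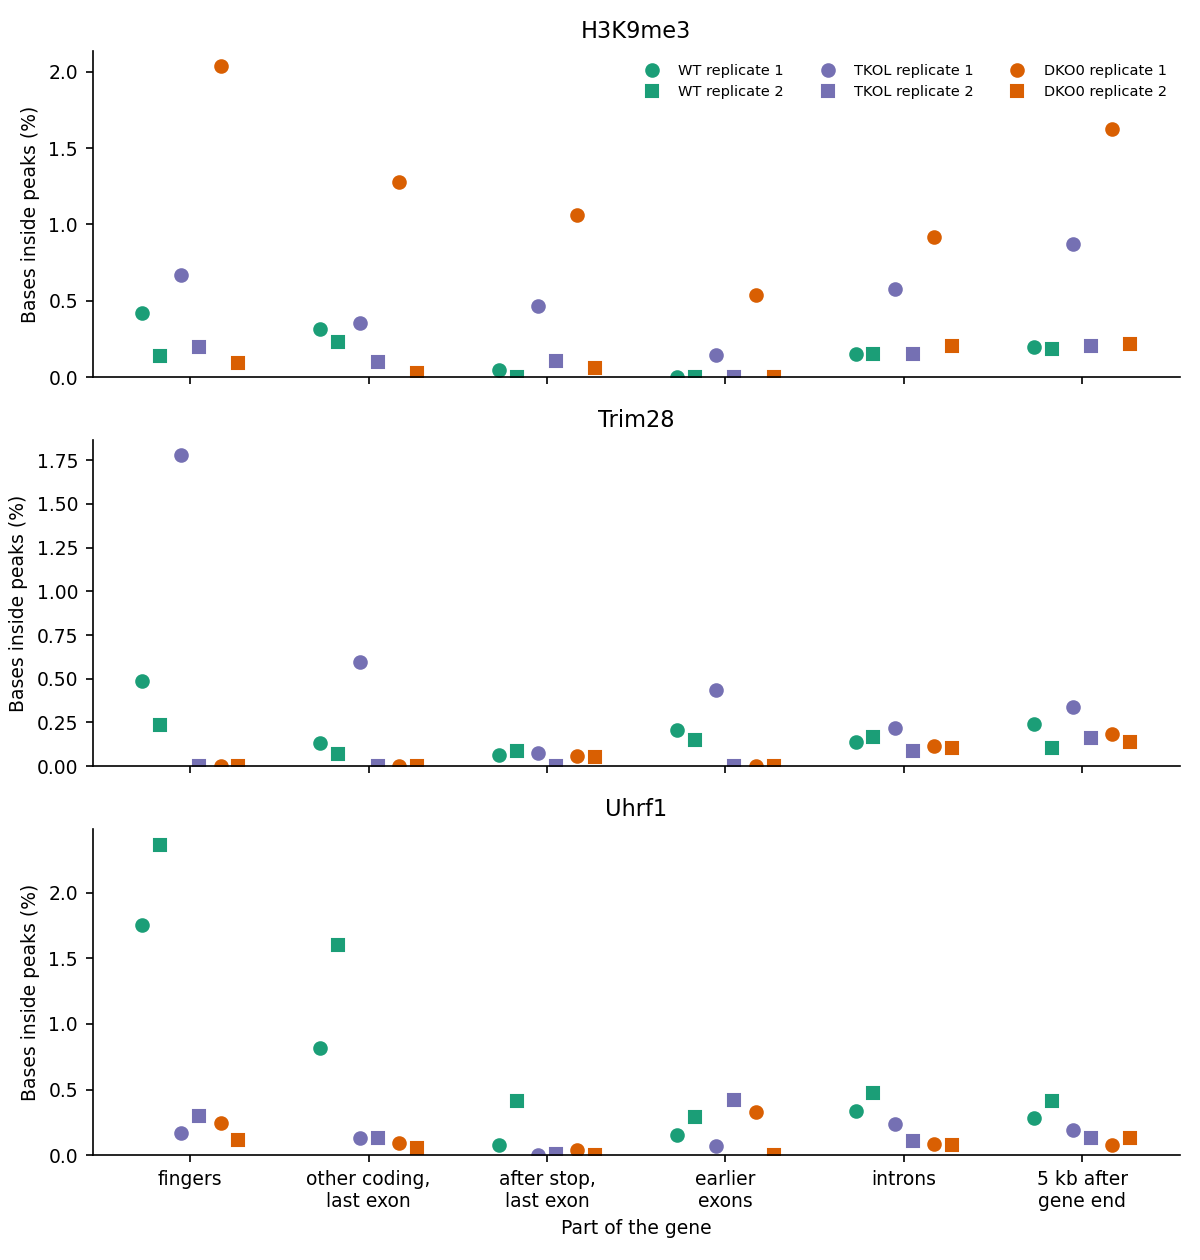
Percent of bases inside peaks for the parts of 276 Zfp genes that encode fingers in the last exon, by mark and replicate peak list. For H3K9me3 the first DKO0 replicate list has 2.04% in finger-coding bases and 0.535% in earlier exons. For Trim28 the first TKOL replicate list has 1.78% in the fingers and the second 0. Pooled lists are not drawn, and the pooled TKOL list of Trim28 has 2.25% in the fingers.

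Zfp600, a KRAB zinc finger gene of 17 fingers at chr4:146124225-146166156, was the only Zfp gene with H3K9me3 over the last exon in all 6 replicate lists. The covered part of its last exon was 12.8% and 9.45% in WT, 16.0% and 3.17% in TKOL and 33.2% and 5.70% in DKO0, and the pooled lists covered 88.5% in TKOL and 100% in DKO0. Uhrf1 covered 26.8% and 23.0% of the same exon in WT, 11.7% and 3.27% in TKOL, and 6.28% and 0 in DKO0. For Uhrf1 the WT lists were above all TKOL and DKO0 lists, whereas for H3K9me3 the lines overlapped. Trim28 was found there in 1 replicate list, TKOL replicate 1, over 5.86%, and in the pooled DKO0 list.

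Zfp534, with 15 fingers, and Zfp180, with 12, had H3K9me3 in both TKOL lists and in neither WT list. They were the only Zfp genes of 343 called in this direction (0.0715% of all genes were). In Zfp534 the covered part was 30.8% and 8.82% in TKOL, 36.2% and 0 in DKO0 and 0 in both WT lists. In Zfp180 it was 12.3% and 5.34% in TKOL, 42.9% and 0 in DKO0 and 0 in WT. In both genes DKO0 replicate 2 was at 0 although the pooled DKO0 list covered 100% and 96.7%.

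Zfp629, with 19 fingers, showed the opposite order. H3K9me3 covered 11.1% and 6.56% of its last exon in WT and none in any TKOL or DKO0 list, pooled lists included. It was the only Zfp gene called for WT against TKOL or against DKO0 (0.0134% of all genes in each). Between DKO0 and TKOL no Zfp gene was called in either direction (0.067% of all genes towards DKO0 and 0.0134% towards TKOL), and none was called in DKO0 against WT (0.13%). With only peaks of −log10 q of at least 5, none of these genes was called.

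**Figure D4:**
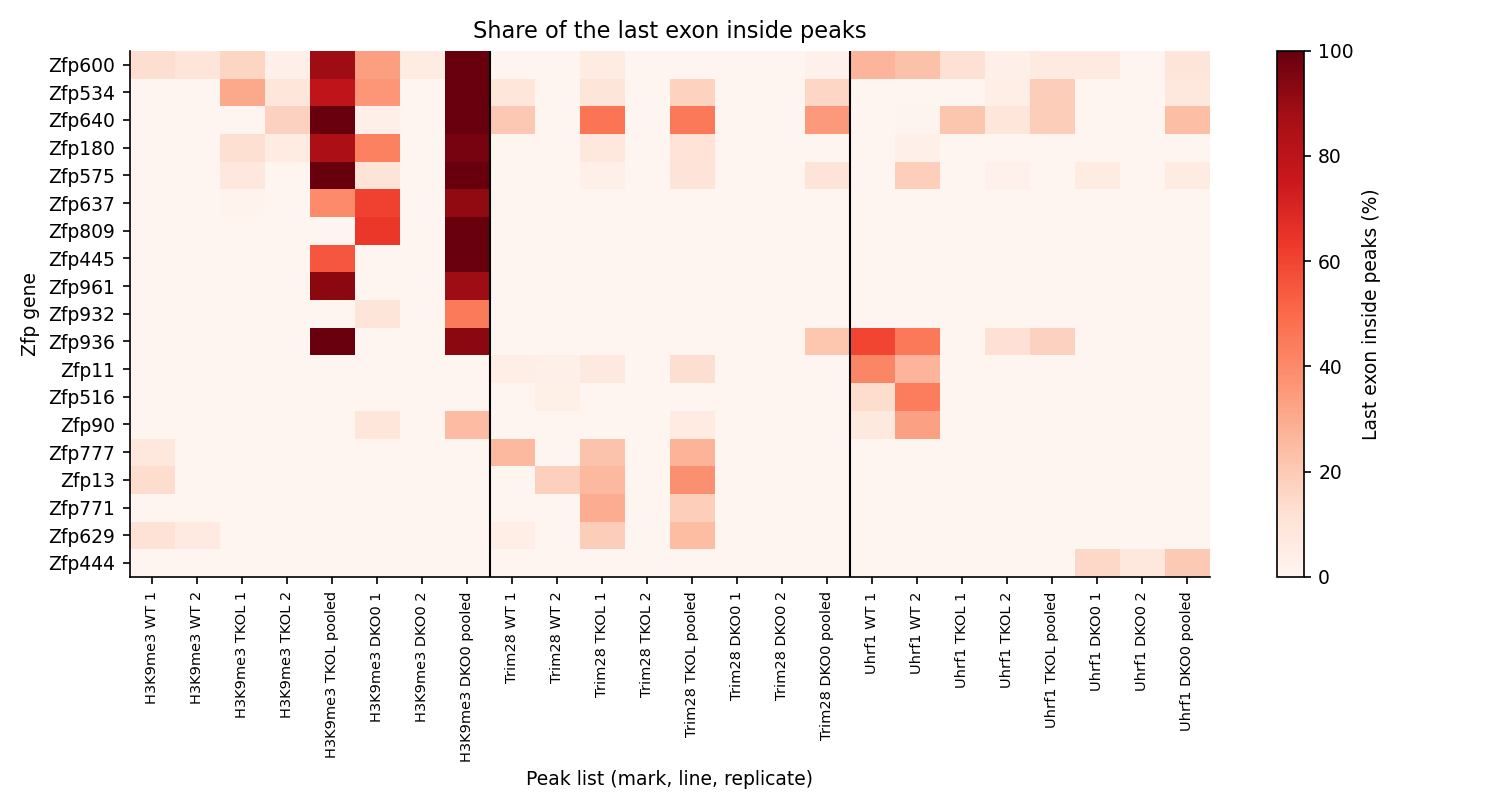
Percent of the last exon inside peaks for named Zfp genes, by mark and peak list. Zfp600 is marked by H3K9me3 in all 6 replicate lists, while Zfp936 and Zfp11 carry Uhrf1 mainly in the WT lists.

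The other genes with the highest H3K9me3 coverage rested on 1 list. Zfp809, a KRAB protein that silences retroviruses with a proline primer binding site, had 64.0% of a last exon of 164 bp covered in DKO0 replicate 1, and 100% in the pooled DKO0 list, with 0 in the other 5 replicate lists and in pooled TKOL. Zfp637 had 60.6% in DKO0 replicate 1, 1.33% in TKOL replicate 1 and 0 in the other 4, with 39.8% and 91.3% in the pooled TKOL and DKO0 lists.

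Among repressors with a known role, the mark was uneven. Of 11 gene records in the list of repressors, 5 had a pooled H3K9me3 peak over the last exon, namely Zfp445, Zfp809, Zfp932, Zfp961 and Zfp600. In either line 3.60% of all genes and 55 of the 343 Zfp genes had one. The list was chosen with earlier results of these data known. Zfp445, which acts with Zfp57 at imprinting control regions, had 55.2% of its last exon covered in pooled TKOL and 100% in pooled DKO0, but no replicate list held a peak there. Zfp961 had 92.5% and 88.5%, again with no replicate list. Zfp932, which binds endogenous retroviruses, had 44.8% in pooled DKO0, 9.10% in DKO0 replicate 1 and 0 in all other lists.

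The remaining repressors had no last-exon peak of any mark. These were Zfp57, the keeper of imprinted methylation, Zfp568, which represses a placental transcript of Igf2, Zfp819, Zfp459 and both records of Zfp708. None of the 6 genes of the pluripotency list (Zfp42, Zfp281, Zfp217, Zfp143, Zfp462 and Zfp296) and none of the 6 of the development list (Zfp423, Zfp521, Zfp536, Zfp335, Zfp148 and Zfp36) had H3K9me3 over the last exon in any list. In these 12 genes a single replicate list held Uhrf1 over the last exon of Zfp536, covering 32.3% in WT replicate 2, and a single list held Trim28 over that of Zfp148, covering 1.24% in WT replicate 2.

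Trim28 was found over few Zfp last exons, and the count followed 1 list. It was 7 and 6 genes in WT (2.04% and 1.75%), 18 and 1 in TKOL (5.25% and 0.292%) and 2 and 1 in DKO0 (0.583% and 0.292%). In pooled TKOL it was 18 genes (1.89% of all genes had a peak) and in pooled DKO0 it was 7 (0.751%). The excess over genes of like length was 1.34 ± 0.383 percentage points in WT, 2.14 ± 2.93 in TKOL and 0.207 ± 0.155 in DKO0 (n = 2 lists each), and it was above 0 in 6 of 6 lists. Against genes of like last exon length it was above 0 in 4 of 6.

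The TKOL value of Trim28 belonged to replicate 1. Of the 18 genes of that list, 13 were also in the pooled TKOL list, and 1 was in replicate 2. Finger-coding bases were covered over 1.78% in replicate 1, in 15 genes, and over 0 in replicate 2, while introns had 0.219% and 0.0864%. This list had the most peaks of the Trim28 replicate lists and the library name that differed, and the part of these in the result was not tested.

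The Zfp genes with the most Trim28 over the last exon were Zfp640, Zfp777, Zfp13, Zfp771 and Zfp629. Zfp640, with 7 fingers, had 46.5% in TKOL replicate 1, 20.6% in WT replicate 1 and 0 in the other 4 lists, with 45.7% and 35.2% in pooled TKOL and DKO0. Zfp777 had 25.7% in WT replicate 1 and 22.1% in TKOL replicate 1, and Zfp13 had 17.9% in WT replicate 2 and 25.6% in TKOL replicate 1. Zfp771 was covered over 29.3% in TKOL replicate 1 and in no other replicate list. None of the 5 genes had Trim28 in both lists of a line.

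Both lists of a line held Trim28 over the same last exon in 1 Zfp gene in WT (0.134% of all genes), 1 in TKOL (0.103%) and none in DKO0 (0.0715%). Only 2 Zfp genes were called between lines for Trim28. Zfp706 had a peak in both TKOL lists, over 0.103% and 0.796% of its last exon, and in neither WT list (0.0223% of all genes were called). Zfp11 had one in both WT lists, over 4.03% and 3.06%, and in neither DKO0 list (0.0536% of all genes).

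Uhrf1 over the last exon differed between WT and the other lines. It was present in 16 and 28 Zfp genes in WT (4.66% and 8.16%), in 2 and 8 in TKOL (0.583% and 2.33%) and in 5 and 2 in DKO0 (1.46% and 0.583%), so both WT lists stood above all 4 others. The mean difference was 4.96 percentage points between WT and TKOL and 5.39 between WT and DKO0, with pooled SDs of 1.96 and 1.80. All genes moved the same way, by 2.23 and 2.20 points. The WT lists were also the longest Uhrf1 lists, with 30134 and 49156 peaks against 11440 to 17444 in the other lines. With every Uhrf1 list trimmed to the same number of peaks, the WT excess over genes of like length was 1.31 percentage points. That value compares Zfp genes with other genes in WT, and does not compare WT with the other lines.

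Over other genes of like length the excess in Uhrf1 was 4.15 ± 1.48 percentage points in WT, 1.01 ± 1.17 in TKOL and 0.519 ± 0.460 in DKO0 (n = 2 lists each). As ratios to genes of like length, the shares were 2.99 and 2.75 in WT, 1.44 and 4.72 in TKOL and 2.38 and 1.50 in DKO0. The lines thus overlapped as ratios. All 6 lists stood above, and all 6 did so against genes of like last exon length too, where the WT shares were 3.47% and 6.27% in the other genes. Against these the WT excess was 1.54 ± 0.492 points. In WT, 11 Zfp genes (3.21%) held the peak in both lists, where 0.956% of all genes did, and 2 did so in TKOL and 1 in DKO0 (0.134% of all genes in each). The pooled lists held 7 Zfp genes in TKOL and 12 in DKO0 (0.979% and 1.47% of all genes). In the finger-coding bases of WT, Uhrf1 covered 1.76% and 2.37%, and in the introns of the same genes 0.338% and 0.472%.

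A Uhrf1 peak in both WT lists and neither TKOL list was called at 9 Zfp genes (2.62%, against 0.876% of all genes), and 10 were called against DKO0 (2.92%, against 0.889%). With lists of equal size 3 were called against each line, and with only peaks of −log10 q of at least 5 there were 0. Zfp936, a gene of 11 fingers, was covered over 59.5% and 45.3% in WT, 0 and 11.4% in TKOL and 0 in both DKO0 lists. Zfp11, with 21 fingers, had 41.1% and 26.8% in WT and 0 in every TKOL and DKO0 list, pooled lists included. Zfp516 had 13.5% and 43.9% in WT, Zfp90 had 7.16% and 32.8%, Zfp94 had 16.4% and 11.4%, and Zfp287 had 3.88% and 15.5%, and none of the 4 had Uhrf1 in any TKOL or DKO0 list.

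These genes did not carry the 3 marks alike. Zfp936 had pooled H3K9me3 over 100% of its last exon in TKOL and 92.5% in DKO0. Zfp11 had H3K9me3 in none of the 8 lists. In the opposite direction, only Zfp444, with 4 fingers, was called for Uhrf1 in DKO0 against each of the other lines (0.0492% of all genes against TKOL and 0.0804% against WT), with 15.3% and 8.13% in DKO0 and 0 in WT and TKOL. Zfp640 was the only gene called in TKOL and not in DKO0, with 21.9% and 8.68% in TKOL (0.0313% of all genes).

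No Zfp gene had all 3 marks over the last exon in all replicate lists. In the pooled lists the 3 marks met over the last exon of Zfp534 and Zfp640 in TKOL (0.583% of Zfp genes, 0.147% of all genes), and of Zfp534, Zfp553, Zfp575, Zfp600, Zfp640 and Zfp706 in DKO0 (1.75% and 0.103%). The genes whose set of lists with a last-exon peak was most like that of Zfp600, over all 24 lists, were Zfp640, Zfp575 and Zfp534. They shared 0.579, 0.556 and 0.526 of the lists in which either gene had a peak.

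Gene starts, taken as 1 kb on either side of the annotated start, did not hold the same excess. For H3K9me3, 4 of 6 replicate lists stood above other genes of like length, from −0.214 to 2.05 percentage points, although the pooled lists had 25 and 26 Zfp genes (7.29% and 7.58%) where 3.04% and 3.38% of all genes had a peak. For Trim28 it was 4 of 6 lists, from −0.261 to 0.717 points, and for Uhrf1 3 of 6, from −1.52 to 2.56 points. The H3K9me3 starts and last exons overlapped in 13 genes marked at both places in both pooled lists.

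Uhrf1 at starts showed an order of lines opposite to that at last exons. A peak was found at 1 Zfp gene start in each WT list (0.292%), at 5 and 20 in TKOL (1.46% and 5.83%) and at 23 and 5 in DKO0 (6.71% and 1.46%), with 42 (12.2%) in pooled DKO0, where 9.26% of all genes had one. Both WT lists were below the other 4. All genes moved the same way at starts, with means of 1.47% in WT, 2.07% in TKOL and 3.14% in DKO0. Both DKO0 lists and neither WT list held a peak at 5 Zfp gene starts (1.46%, against 0.496% of all genes), and 1 of these was Zfp42.

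Zfp42, also called Rex1, is a marker of naive pluripotency. At its start Uhrf1 covered 2.70% and 8.15% of the window in TKOL, 15.4% and 0.750% in DKO0 and 0 in both WT lists. H3K9me3 was found there in DKO0 replicate 1 alone, over 3.10%. Of all Zfp gene starts, only those of Zfp781 and Zfp386, named after their values were seen, had H3K9me3 in all 6 replicate lists. At the Zfp386 start H3K9me3 covered 5.10% and 13.9% in WT, 30.1% and 19.3% in TKOL and 30.3% and 16.4% in DKO0, so the WT lists were below the others. Trim28 was found at that start in all 4 TKOL and DKO0 lists and in neither WT list, with at most 13.04% of the window covered.

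Over whole gene bodies, H3K9me3 was present in 95 Zfp genes (27.7%) in each pooled list, against 21.3% and 21.2% of all genes and 15.7% of other genes of like length. The replicate lists did not all show this excess. H3K9me3 stood above genes of like length in 4 of 6 of them, from −2.11 to 8.19 percentage points, and above all other genes in 2 of 6. Trim28 stood above genes of like length in 6 of 6 replicate lists, by 1.32 to 4.49 percentage points, and Uhrf1 in 1 of 6. Without matching on length, Trim28 bodies stood above all other genes in 2 of 6 lists, with mean shares of 14.3%, 13.3% and 8.89% in WT, TKOL and DKO0 against 15.2%, 14.1% and 10.8% of all genes. The bodies of Zfp277 and Zfp600 held all 3 marks in all 6 replicate lists of each. Zfp277 was named after its values were seen. Without matching on length, a peak over the body in all 6 lists was less frequent among Zfp genes than among all genes, with 3.499% against 6.86% for H3K9me3, 2.33% against 4.00% for Trim28 and 0.875% against 2.57% for Uhrf1. In single lists such matching lowered the share of other genes, for H3K9me3 in WT replicate 1 to 8.96%, where all genes had 13.1%. The part of length in the shares over all 6 lists was not tested. No peak of any mark in any list lay over the start or body of 106 Zfp genes (30.9%, against 35.2% of all genes).

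Zfp genes tend to lie in tandem clusters, and with neighbours joined over gaps of up to 200 kb, 207 of the 343 fell into 51 clusters and 136 lay alone. A pooled H3K9me3 peak over the last exon was present in 32 clustered genes in TKOL and in 32 in DKO0 (15.5% each), and in 12 and 15 of the genes that lay alone (8.82% and 11.0%). With a gap of 100 kb the DKO0 shares were 13.8% and 13.6%. The replicate lists did not share 1 direction. Those of TKOL had the opposite order, with 3.86% of clustered genes against 4.41% of lone genes in replicate 1 and 0.966% against 2.94% in replicate 2. The opposite order was also seen in DKO0 replicate 2, with 0 against 1.47%, and in WT replicate 2, with 0.483% against 0.735%. Clustered genes stood higher in DKO0 replicate 1, with 8.70% against 6.62%, and in WT replicate 1, with 1.93% against 1.47%. The largest clusters were mostly unmarked, as were the Zfp genes as a whole, of which 12.8% were marked in TKOL and 13.7% in DKO0. In the 19 genes on chr13:67139530-67927937 the last exon of 2 was marked in TKOL and of 1 in DKO0, Zfp273 being the most covered, with a mean of 42.7% over the pooled lists. In the 15 genes on chr17:21520712-22593656 it was Zfp942 alone, with 77.8%, in both lines.

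The 14 genes on chr7:30553571-30954746 had 3 marked last exons in TKOL and 2 in DKO0, with Zfp27 at a mean of 68.9%. Zfp953, Zfp948 and Zfp940 were among the genes of these clusters with no coverage. Bodies, which contain the last exons and so cannot be marked in fewer genes, were marked in 5, 6 and 5 genes of the 3 clusters in TKOL. In DKO0 they were marked in 3, 5 and 6.

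In the pooled lists genes with 10 or more fingers were marked more often than those with fewer, without a steady order of classes. H3K9me3 lay over the last exon of 23 of 116 genes with 10 to 14 fingers in each line (19.8%), and of 9 and 10 of 64 with 15 or more (14.1% and 15.6%). It lay over that of 6 and 8 of 90 with 5 to 9 (6.67% and 8.89%), of 5 and 4 of 51 with 1 to 4 (9.80% and 7.84%), and of 1 and 2 of 22 with none (4.55% and 9.09%). Of the replicate lists, only DKO0 replicate 1 had a higher share with 10 to 14 fingers than with 1 to 4, at 10.3% against 3.92%. In TKOL replicate 1 these were 1.72% and 5.88%, with 10.9% at 15 or more. The share at 15 or more was above that at 1 to 4 in each replicate list but DKO0 replicate 2, at 1.56% against 1.96%. It rested on few genes, with 2 of 64 in each WT list. Last exons that shared a stretch of 50 identical bases with another Zfp last exon were marked in 18 and 19 of 74 genes (24.3% and 25.7%), and those without in 26 and 28 of 266 (9.77% and 10.5%). Reads from such stretches can align to more than 1 gene, and the part of this in the counts was not tested.

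Marked last exons also differed in base composition. The 36 genes marked in both pooled lists had a median of 9.58 CpGs per kb of last exon and a GC content of 39.8%, against 15.1 CpGs per kb and 45.4% in the 288 genes marked in neither. Of the 36 genes, 72.2% lay in clusters, against 58.7% of the 288. Their median numbers of fingers were 11.5 and 9, and the median lengths of the last exon 2337 and 2184 bp.

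The KRAB box was searched in the translated coding sequences with 2 short residue patterns, and the answer depended on the pattern. The first matched 121 Zfp genes (0.545% of other genes), of which 24 in TKOL (19.8%) and 27 in DKO0 (22.3%) had a pooled H3K9me3 peak over the last exon, against 20 of 222 genes without a match in each line (9.01%). The second matched 154 genes, of which 15 and 14 were marked (9.74% and 9.09%), against 29 and 33 of 189 without (15.3% and 17.5%). Zfp57 and Zfp445, both known KRAB proteins, were not matched by the first pattern, so a missing match does not show that the box is absent.

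Other gene families, named by their symbols, gave a frame for these shares. Over the last exon, pooled H3K9me3 lay in 0 of 32 Zbtb genes, whose zinc finger proteins carry a BTB domain, in either line, and in 1 of 18 Zscan and Zkscan genes (5.56%). Among vomeronasal receptors it lay in 10 and 5 of 203 Vmn1r genes (4.93% and 2.46%) and in 3 and 7 of 117 Vmn2r genes (2.56% and 5.98%), and in none of 24 clustered protocadherins. Vmn2r genes were marked over the body more often than Zfp genes, in 49 and 57 genes (41.9% and 48.7%), where Zfp genes had 95 of 343 in each line. In the 24 genes named Zfp with letters no last exon was marked in either line.

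Zinc finger genes of other names were marked as well. In a comparison added after the data were seen, the 199 genes of other names with 5 or more fingers had a pooled H3K9me3 peak over the last exon in 40 genes in TKOL (20.1%) and 43 in DKO0 (21.6%). These were above the shares of all 343 Zfp genes, which include 22 with no finger and 51 with 1 to 4. The Zfp genes with 5 to 9 fingers had 6.67% and 8.89% in TKOL and DKO0, those with 10 to 14 had 19.8% in each, and those with 15 or more had 14.1% and 15.6%. Their replicate lists gave 3.52% to 11.1% for H3K9me3, 0.503% to 6.03% for Trim28 and 1.51% to 9.55% for Uhrf1, where the Zfp genes gave 0.583% to 7.87%, 0.292% to 5.25% and 0.583% to 8.16%.

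**Figure D5:**
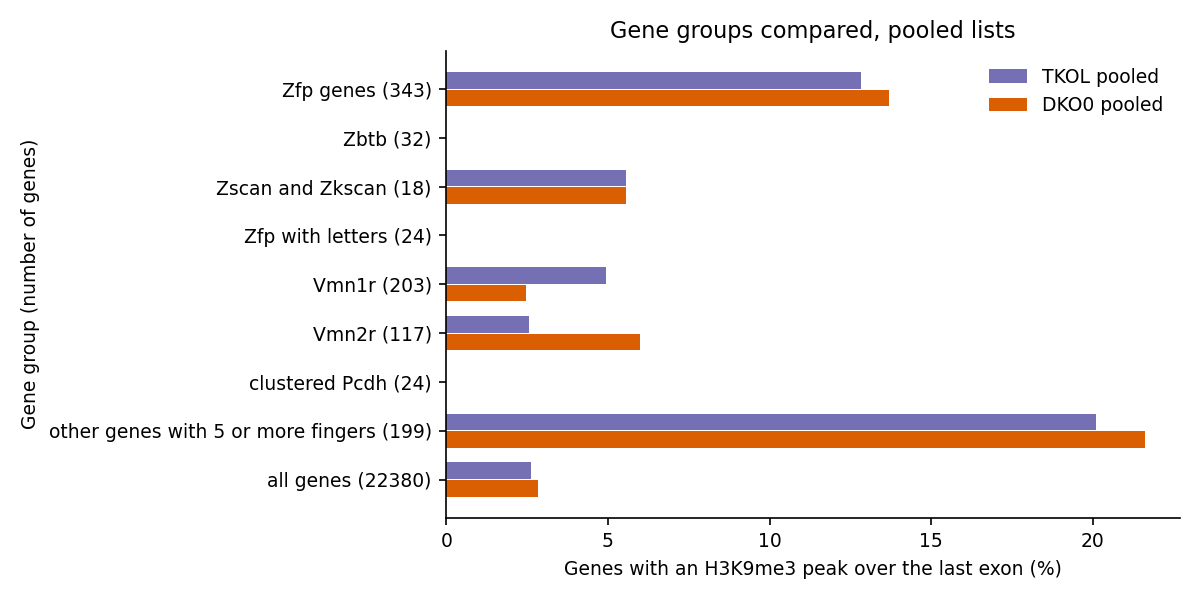
Share of genes (%) with a pooled H3K9me3 peak over the last exon, by gene family, in TKOL and DKO0. Zfp genes of any number of fingers stand at 12.8% and 13.7%, other genes with 5 or more fingers at 20.1% and 21.6%, and Zbtb genes and clustered protocadherins at 0.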

How the data were processed

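H3K9me3 and Trim28 were profiled by ChIP-seq and Uhrf1 by ChIPmentation in WT, TKOL and DKO0 ESCs. The authors used BWA for alignment to mm9, GATK for duplicates and MACS2 for broad peaks, which for TKOL and DKO0 were also called on both replicates merged with input. Whether input was used for the replicate lists is not given in the sources used here. The sample labels state no passage for DKO0, but the names of its replicate lists hold p5 for both ChIP-seq marks and p3 for Uhrf1, so that the marks may come from cells of different passages. The deposited lists hold, for every peak, its enrichment as a ratio (fold) over the background that MACS2 estimated. The deposited p-values and q-values are on a −log10 scale. The authors' lists are not scaled to each other, and the depth in reads is unknown from them. Samples were grouped by their labels. No reads were counted again.

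Peaks from 18 replicate and 6 pooled lists were laid over genes of GENCODE vM1, on the same build, by an overlap of at least 1 bp with the start (1 kb either side), the body or the last exon of the transcript chosen for the gene. Overlaps were checked with bedtools 2.31.1, and 0 of 24 lists differed. Shares of other genes were standardised to the Zfp genes in 10 classes of length. A gene was called between lines if both lists of 1 line and neither of the other held a peak. Fingers were searched in the translated coding sequence, with 2 residues between the cysteines, 12 to the first histidine and 3 to 5 between the histidines. The scripts ran under Python 3.11.15 with numpy 2.4.6 for the counts and matplotlib 3.10.9 for the figures. The overlap and standardisation steps were tested on simulated data.

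The genes named were those of the repressor, pluripotency and development lists, the 5 with the highest mean last-exon coverage for each mark, up to 5 called in each direction for each mark and pair of lines, those with all marks in all lists, the most and least covered of the 3 largest clusters, those with the most and fewest fingers, and the 3 most like a gene described alone. The genes and lists were chosen with earlier results of these data known. Zfp352, which another grouping of the study's genes holds, was left out. Alternatives were another start window, coverage of at least 50%, lists trimmed to the same size, only peaks with a −log10 q-value from 5 upwards, a peak required in both lists, each list left out, other length matching, other cluster gaps and another KRAB pattern.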

Additional observations from a re-analysis of the deposited data

How the results depend on the processing

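No paired analysis was possible because the results are counts and shares that come from no test. The use of 20 length classes, the outermost 3′ exon, Zfp352 kept, genes in windows shared with another gene left out and other zinc finger names left out turned the direction of no last-exon excess. The pooled-list alternatives and the comparison with other genes of 5 or more fingers were chosen after seeing the data. The values below are excesses over other genes of like length at the last exon, in percentage points, unless another quantity is named, and where no reason is given the cause was not tested. Without either replicate in turn, the excess ranged from 0.0606 to 6.24 for H3K9me3, from 0.0650 to 4.21 for Trim28 and from 0.177 to 5.20 for Uhrf1. The H3K9me3 share of DKO0 minus TKOL was −1.17 points without replicate 1 and 3.79 without replicate 2.

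When at least 50% of the window had to be covered, few Zfp genes were left in the replicate lists and the excess turned to −0.0443 in WT and −0.0720 in TKOL for H3K9me3, to −0.0450, −0.0740 and −0.0165 in WT, TKOL and DKO0 for Trim28, and to −0.0414 in TKOL and −0.0254 in DKO0 for Uhrf1, with 0.0270 in WT. At starts it turned to −0.0194 in TKOL and −0.0466 in DKO0 for H3K9me3, −0.0160 in TKOL for Trim28 and −0.00301 in TKOL for Uhrf1. Over bodies it turned to −0.0421 for H3K9me3 in TKOL and to −0.0231, −0.0441 and −0.0150 for Trim28 in WT, TKOL and DKO0.

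With peaks of −log10 q of at least 5, the last-exon excess was 0.0652 for H3K9me3 in TKOL, −0.0365 in WT and −0.0461 in DKO0 for Trim28, and 0.260 in WT and −0.0360 in DKO0 for Uhrf1. Starts turned to −0.107 in TKOL and −0.151 in DKO0 for H3K9me3 and −0.173 in TKOL for Trim28. Bodies turned to −1.10 for H3K9me3 in TKOL, −0.548 for Trim28 in WT and 0.0401 for Uhrf1 in WT. Finger-coding minus intron coverage turned to −0.00301 for Trim28 in WT and −0.00384 for Uhrf1 in DKO0. Under this limit 0 genes were called between lines for H3K9me3, Trim28 or Uhrf1 in any of the directions that had called 1 or more.

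With an equal number of peaks per list, the excess was 0.727 for H3K9me3 in TKOL and 1.31 for Uhrf1 in WT, and the Trim28 start excess in TKOL turned to −0.317. The genes called for Uhrf1 in WT came to 3 against TKOL and 3 against DKO0, 1 was called for Uhrf1 in TKOL against WT and 1 for H3K9me3 in TKOL against WT. Uhrf1 over bodies turned to 0.738 above like length in WT, and the body share to −0.292 points for WT minus TKOL and −2.04 for WT minus DKO0. With a peak needed in both replicate lists, the excess was 0.680 in TKOL and −0.0157 in DKO0 for H3K9me3, 0.205 in WT and −0.0562 in DKO0 for Trim28 and 2.52 in WT for Uhrf1, with starts at 0.269 for H3K9me3 in WT and bodies at 1.10 for Uhrf1 in WT. Matched on last exon length, Uhrf1 in WT had 1.54.

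In the pooled lists the excess was 10.4 in TKOL and 11.0 in DKO0 for H3K9me3, 1.40 in DKO0 for Trim28 and 2.09 in DKO0 for Uhrf1. Matched on last exon length these were 9.67, 10.5, 0.961 and 1.47. With at least 50% covered, H3K9me3 kept 4.34 and 7.55, whereas Trim28 turned to −0.208 and −0.0436 and Uhrf1 to −0.104 and −0.0886 in TKOL and DKO0, where 0 Zfp genes were covered to that extent. With −log10 q of at least 5, DKO0 had 0.478 for Trim28 and −0.0689 for Uhrf1. The second KRAB pattern turned the difference between matched and unmatched genes to −1.76 points in TKOL and −2.96 in DKO0, as means of the replicate lists. The peak lists hold no read depth, so no interval for counting error was given.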

Other observations

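The 2 KRAB patterns split the Zfp genes in a way that the totals hide. Of 29 genes matched by the first pattern alone, 13 in TKOL and 16 in DKO0 had a pooled H3K9me3 peak over the last exon. Of 92 matched by both, 11 had one in each line. Of 62 matched by the second alone it was 4 and 3, and of 160 matched by neither it was 16 and 17. These classes were formed after the data were seen, and no test was run on them.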
